A study of Mus musculus with 16 samples.

Results

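Collagens are the triple-helical proteins of the extracellular matrix, and the mouse genes that encode their chains carry symbols of the form Col, a type number, the letter a and a chain number. The protein-coding genes with such a symbol numbered 44 of the 54838 genes in the deposited count tables. They comprised 11 genes of fibrillar chains, 8 of basement membrane collagens (6 type IV chains and the 2 multiplexins Col15a1 and Col18a1) and 25 others. The others were 9 genes of fibril-associated chains, 6 of type VI beaded filaments, 4 of transmembrane chains, 3 of hexagonal networks, 1 of anchoring fibrils and 2 with no class.

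Fibrillar chains are secreted as procollagens, trimmed, and crosslinked into the fibres that bear tension in tissue. Type IV chains form the sheet-like network under epithelia, endothelia and muscle, and type VI filaments and fibril-associated chains join cells and fibres. In the liver, hepatic stellate cells and portal fibroblasts are the known main makers of fibrillar collagen, and on injury they can become contractile myofibroblasts that secrete more of it. Col18a1, whose protein carries endostatin at its end, is known as a liver collagen made by hepatocytes as well.

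RNA was measured in whole liver of male wild-type C57BL/6J mice in 4 groups. The CCl4 group (n = 3) was taken 3 days after an intraperitoneal injection of 2 µL per g body weight of carbon tetrachloride mixed 1:1 by volume with olive oil. Carbon tetrachloride is a solvent that kills the hepatocytes that metabolise it. The olive oil group (n = 3) received olive oil alone at that dose and was likewise taken at day 3. The PH day 3 group (n = 5) was taken 3 days after partial hepatectomy, the surgical removal of part of the liver, and the PH day 0 group (n = 5) was the liver removed at surgery. The design asks how gene expression changes in a liver that regenerates after toxic injury or after resection. The labels do not say that each sample is a separate animal, so p-values measure the spread between these samples only.

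Libraries held 4738196 to 6218526 counts with CCl4, 4295169 to 5221957 with olive oil, 2795909 to 4391002 in the PH day 3 livers and 3271398 to 8647503 in the PH day 0 livers. Collagen genes received 7399 to 16315 of these counts with CCl4, 5385 to 6307 with olive oil, 4944 to 9405 in the PH day 3 livers and 4158 to 12653 in the PH day 0 livers. Levels are in CPM, counts scaled to the depth of each library, with TMM factors that align the bulk of genes between samples. A count of 0 allowed up to 0.369 to 1.03 CPM, which is 3 counts of a library and covers counting error only. The label of whole liver was checked with hepatocyte markers, of which the 7 found summed to 90668 to 122061 CPM with CCl4, 99163 to 109547 CPM with olive oil, 114299 to 132554 CPM in the PH day 3 livers and 77969 to 93623 CPM in the PH day 0 livers. One of the index sequences used to tag libraries went with the group, so that it cannot be told apart from the group. In bulk tissue, fewer cells of a type and less RNA per cell cannot be told apart either.

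The collagen with the highest level per kilobase of exon in all 4 groups was Col18a1. Per kilobase it averaged 105 ± 22.0 CPM with CCl4 and 149 ± 3.77 CPM with olive oil (SD, n = 3 each), and 158 ± 7.43 CPM at PH day 3 and 179 ± 9.60 CPM at PH day 0 (SD, n = 5 each). In the olive oil livers Col5a3 was next, at 13.5 CPM per kilobase, followed by Col27a1 at 3.98, Col14a1 at 3.93 and Col4a1 at 2.66. The PH day 0 livers also had Col5a3 next after Col18a1, at 13.8 CPM per kilobase, with Col4a1 at 5.51 and Col14a1 at 4.95 behind it. With CCl4 the next places went to Col3a1 at 27.8 and Col1a1 at 18.6 CPM per kilobase, and Col5a3 was in place 11. In the PH day 3 livers they went to Col4a1 at 15.1 and Col3a1 at 14.2 CPM per kilobase, and Col5a3 was in place 5. Below Col18a1, the unchallenged livers were thus led by a type V chain gene, and both challenged groups had another order. Neighbours could be closer than their spread, as Col27a1 and Col14a1 were in the olive oil livers, at 3.98 ± 2.47 and 3.93 ± 0.851 CPM per kilobase (SD, n = 3).

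Of the 44 collagen genes, 21 passed the filter on low counts for the comparison of CCl4 with olive oil, and 11 rose and 2 fell (edgeR quasi-likelihood test, adjusted p under 0.05). Over the 11337 genes tested in that comparison, 22.9% were called, 11.3% higher and 11.6% lower. After partial hepatectomy 19 passed the filter, and 8 rose and 1 fell at PH day 3 relative to PH day 0, where 17.7% of 10546 genes were called, 9.73% higher and 8.01% lower. A gene at a low level can pass the filter through the group in which it is high, so these counts do not describe all 44. Of the fibrillar genes tested, 5 of 7 rose and 2 fell with CCl4, and 5 of 7 rose and 1 fell at PH day 3. Of the basement membrane genes tested, 2 of 5 rose with CCl4 and 3 of 5 at PH day 3. Of the remaining classes, 4 of 9 rose with CCl4, and none of 7 was called at PH day 3 by edgeR or limma-voom, against 3 by DESeq2 and 3 at an unadjusted p under 0.05. When the number in the PH sample names was added to the edgeR fit as a block, 2 of these 7 were called higher.

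**Figure D1:**
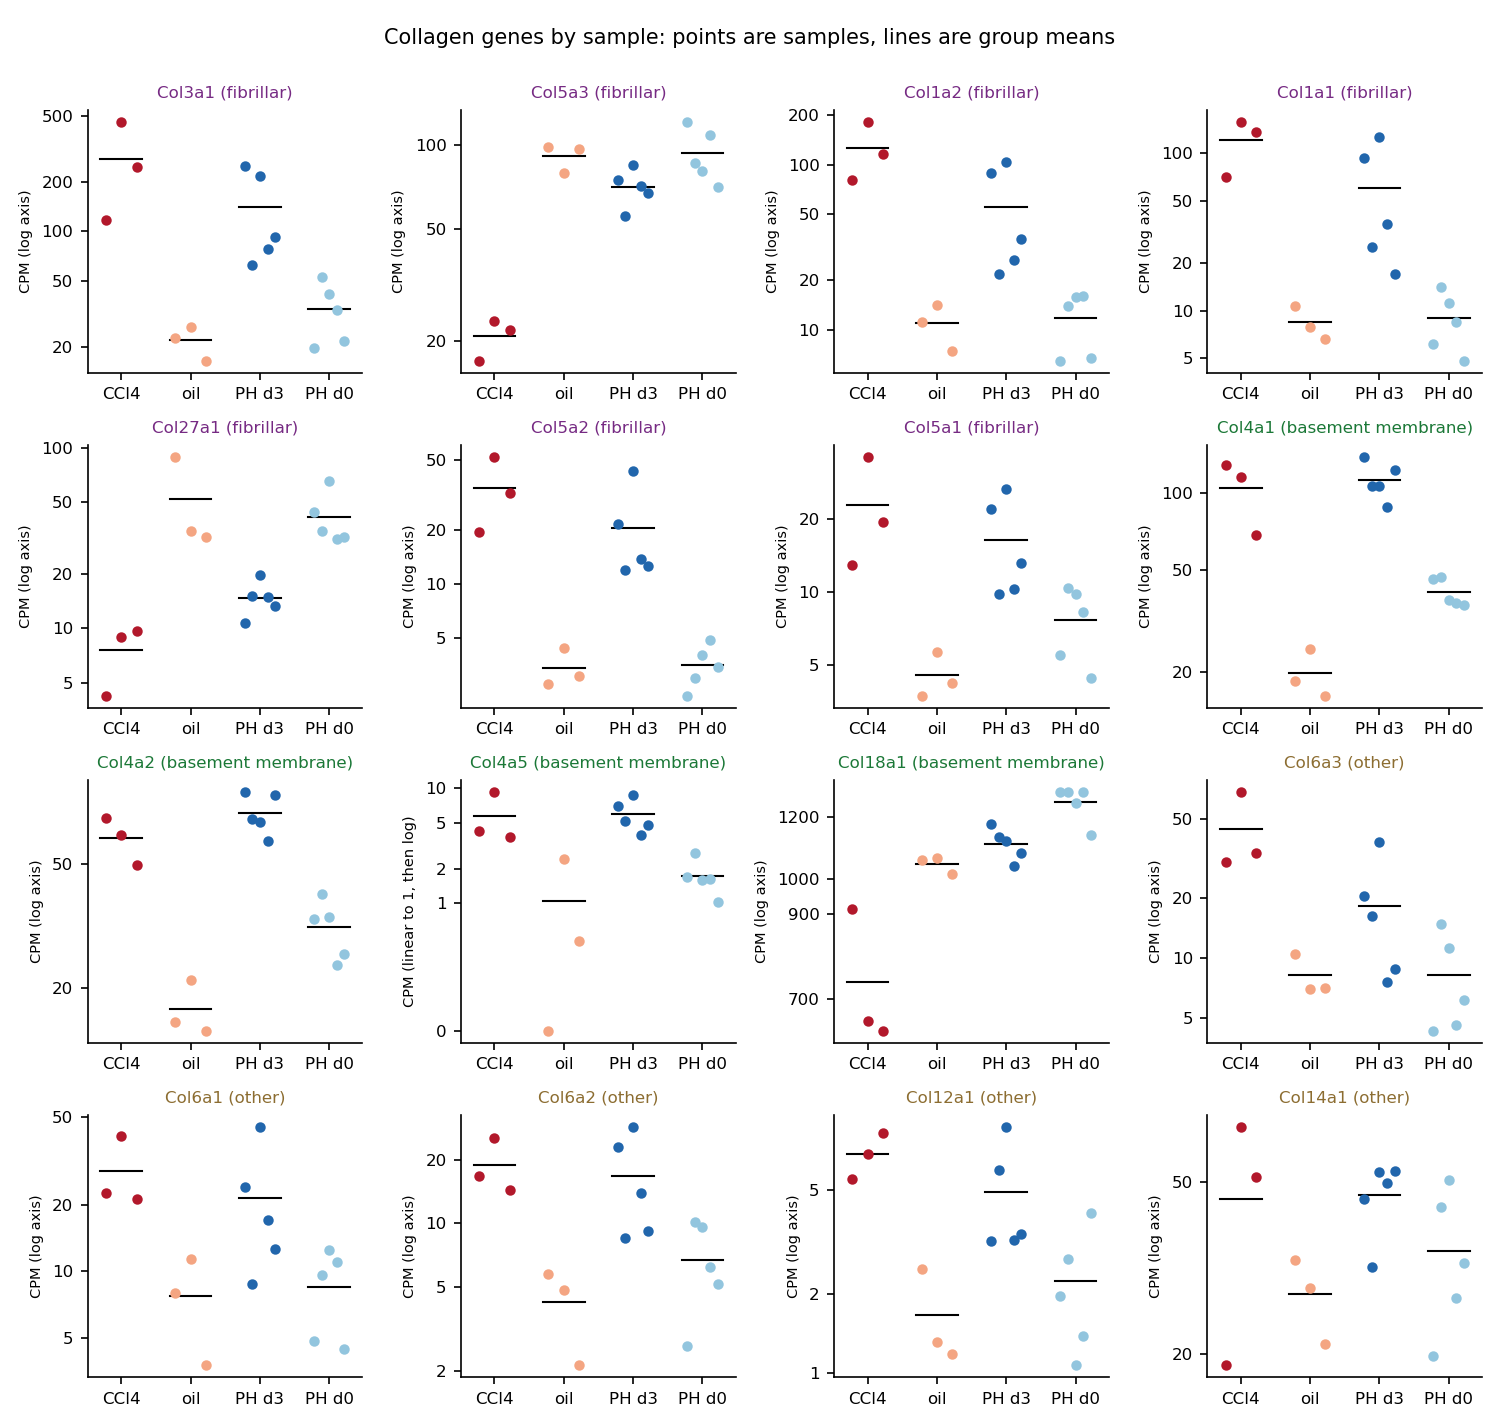
Levels of the 16 collagen genes described sample by sample, in CPM on a log axis, with 1 point per library and a bar at each group mean, for CCl4, olive oil, PH day 3 and PH day 0 from left to right. Col1a1 sits between 70.3 and 158 CPM in the CCl4 livers and between 6.59 and 10.8 CPM in the olive oil livers, while Col5a3 sits between 16.9 and 23.6 CPM with CCl4 and between 79.5 and 98.8 CPM with olive oil.

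The fibrillar genes that rose were those of the type I, type III and the major type V chains. Col1a1 (chr11:94936224-94953042, GRCm38, plus strand) encodes the major chain of type I collagen, the main protein of scar. It had 70.3, 158 and 138 CPM in the CCl4 livers, against 10.8, 7.89 and 6.59 CPM in the olive oil livers. It had 93.9, 25.4, 128, 35.6 and 17.0 CPM in PH day 3 livers 12 to 16, against 6.16, 14.1, 11.2, 8.52 and 4.79 CPM in PH day 0 livers 12 to 16. Neither pair of groups overlapped, and PH day 3 livers 12 and 14 were far above the other 3. The fitted log2 fold change of Col1a1 was 3.84 ± 0.35 (SE, adjusted p = 0.000389) with CCl4, which is 14.3-fold, and 2.76 ± 0.66 (SE, adjusted p = 0.0214) at PH day 3.

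Col1a2 (chr6:4504814-4541544, plus strand), which encodes the partner chain of type I collagen, had 81.0, 181 and 116 CPM with CCl4, against 11.3, 14.2 and 7.53 CPM with olive oil. It had 89.3, 21.8, 103, 26.6 and 35.7 CPM in PH day 3 livers 12 to 16, against 6.55, 14.1, 16.0, 16.1 and 6.85 CPM in PH day 0 livers 12 to 16. The groups were apart in both comparisons, with livers 12 and 14 again highest at PH day 3. For Col1a2 the log2 fold change was 3.49 ± 0.36 (SE, adjusted p = 0.000773) with CCl4 and 2.24 ± 0.56 (SE, adjusted p = 0.0272) at PH day 3.

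Col3a1 (chr1:45311538-45349706, plus strand), the chain of type III collagen in the reticular fibres of the liver, was the fibrillar gene with the highest level per kilobase in both challenged groups. It had 117, 459 and 244 CPM with CCl4, against 22.8, 26.5 and 16.5 CPM with olive oil. At PH day 3 livers 12 to 16 had 249, 62.3, 217, 77.9 and 92.8 CPM, against 19.7, 53.3, 42.1, 33.6 and 21.6 CPM in PH day 0 livers 12 to 16. The lowest PH day 3 liver was just above the highest PH day 0 liver, and the CCl4 and olive oil livers were far apart. For Col3a1 the log2 fold change was 3.62 ± 0.56 (SE, adjusted p = 0.0073) with CCl4 and 2.06 ± 0.50 (SE, adjusted p = 0.0245) at PH day 3.

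The PH day 3 calls of Col1a1, Col1a2 and Col3a1 were near the threshold. Without PH day 0 liver 12 or 16, the adjusted p of each of the 3 lay above 0.05, and the count of risen fibrillar genes went down to 2. Without PH day 0 liver 15, Col1a1 and Col3a1 were not called and the count was 3. Col1a2 was not called without PH day 0 liver 13 or PH day 3 liver 12, and Col3a1 not without PH day 3 liver 14. Across these omissions the adjusted p lay between 0.0512 and 0.0553 for Col1a1, between 0.0542 and 0.0644 for Col1a2 and between 0.0511 and 0.0579 for Col3a1, and the log2 fold changes stayed at 1.85 or above. By limma-voom neither Col1a1 (adjusted p = 0.0778) nor Col1a2 (adjusted p = 0.0673) was called at PH day 3. When edgeR was fitted with the PH number as a block, none of the 3 was called there. The adjusted p was then 0.0523 for Col1a1, 0.103 for Col1a2 and 0.118 for Col3a1.

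Type V chains set the diameter of type I fibres. Col5a1 (chr2:27886425-28039514, plus strand) had 12.9, 36.1 and 19.4 CPM with CCl4, against 3.75, 5.70 and 4.23 CPM with olive oil. It had 22.1, 9.86, 26.6, 10.3 and 13.3 CPM in PH day 3 livers 12 to 16, against 5.50, 10.4, 9.85, 8.29 and 4.45 CPM in PH day 0 livers 12 to 16. The CCl4 and olive oil livers did not overlap, while PH day 3 livers 13 and 15 were below the highest PH day 0 liver. Its log2 fold change was 2.31 ± 0.40 (SE, adjusted p = 0.00327) with CCl4 and 1.10 ± 0.30 (SE, adjusted p = 0.0165) at PH day 3.

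Col5a2 (chr1:45374321-45503282, minus strand), the second chain of the common type V heterotrimer, had 19.7, 51.8 and 32.6 CPM with CCl4, against 2.75, 4.38 and 3.06 CPM with olive oil. It had 21.9, 11.9, 43.2, 13.8 and 12.6 CPM in PH day 3 livers 12 to 16, against 2.36, 2.97, 3.99, 4.83 and 3.42 CPM in PH day 0 livers 12 to 16. All challenged livers were above all of their unchallenged counterparts. For Col5a2 the log2 fold change was 3.33 ± 0.39 (SE, adjusted p = 0.000576) with CCl4 and 2.58 ± 0.39 (SE, adjusted p = 0.000362) at PH day 3. Col5a2 and Col3a1 lie tail to tail on chromosome 1 with 24614 bases between them.

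Among the fibrillar genes, Col5a3 fell with CCl4 and Col27a1 fell in both challenges. Col5a3 (chr9:20770050-20815067, minus strand) encodes the third and least widespread type V chain. It had 16.9, 23.6 and 21.8 CPM with CCl4, against 98.8, 79.5 and 96.9 CPM with olive oil. It had 75.0, 56.0, 85.2, 71.7 and 67.6 CPM in PH day 3 livers 12 to 16, against 121, 86.2, 80.7, 109 and 71.2 CPM in PH day 0 livers 12 to 16. The CCl4 livers were far below the olive oil livers, and the groups of the partial hepatectomy overlapped. For Col5a3 the log2 fold change was -2.15 ± 0.17 (SE, adjusted p = 4.74e-05) with CCl4, and -0.39 ± 0.14 (SE, adjusted p = 0.0593, not called by edgeR) at PH day 3. With no filter on low counts (adjusted p = 0.0024), and without PH day 0 liver 14 or 16 or PH day 3 liver 14 (adjusted p between 0.0142 and 0.0457), it was called there. The edgeR fit with the PH number as a block called Col5a3 lower at PH day 3 too (adjusted p = 0.0287).

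Col27a1 (chr4:63214004-63334991, plus strand) encodes a fibrillar chain best known from cartilage. It had 4.23, 8.97 and 9.62 CPM with CCl4, against 89.0, 34.6 and 32.0 CPM with olive oil. It had 10.7, 15.0, 19.7, 14.9 and 13.3 CPM in PH day 3 livers 12 to 16, against 44.3, 34.4, 65.2, 31.1 and 32.2 CPM in PH day 0 livers 12 to 16. All challenged livers were below all of their unchallenged counterparts, and olive oil liver 1 stood well above the other 2. For Col27a1 the log2 fold change was -2.76 ± 0.52 (SE, adjusted p = 0.0138) with CCl4 and -1.49 ± 0.21 (SE, adjusted p = 5.67e-05) at PH day 3. With any one of the 3 CCl4 livers left out the adjusted p of the CCl4 comparison was between 0.0501 and 0.0592.

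The stretches just before the starts of 2 genes that rose and the 2 fibrillar genes that fell are shown because these genes share a class and moved in opposite directions. Each is the 150 bases before the RefSeq start (GRCm38.p6), which for Col27a1 lies inside the gene's outer bounds given above, 5′ to 3′ on the gene's strand, with the motif matches described after them in capitals.
Col3a1: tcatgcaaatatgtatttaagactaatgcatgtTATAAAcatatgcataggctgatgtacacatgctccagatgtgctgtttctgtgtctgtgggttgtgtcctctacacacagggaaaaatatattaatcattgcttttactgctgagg
Col5a1: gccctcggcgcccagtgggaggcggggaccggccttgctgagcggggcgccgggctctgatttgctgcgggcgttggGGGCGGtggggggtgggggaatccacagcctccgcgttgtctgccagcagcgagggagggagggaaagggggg
Col27a1: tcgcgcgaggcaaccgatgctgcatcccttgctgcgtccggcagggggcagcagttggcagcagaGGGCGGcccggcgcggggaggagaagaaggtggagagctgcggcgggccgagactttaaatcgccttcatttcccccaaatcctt
Col5a3: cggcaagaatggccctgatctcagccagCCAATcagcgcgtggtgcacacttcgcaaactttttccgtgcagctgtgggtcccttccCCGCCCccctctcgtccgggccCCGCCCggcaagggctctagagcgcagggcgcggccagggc
They lie at chr1:45311388-45311537 (plus) for Col3a1, chr2:27886275-27886424 (plus) for Col5a1, chr4:63215262-63215411 (plus) for Col27a1 and chr9:20815068-20815217 (minus) for Col5a3. The TATA box was searched as the letters TATAAA, the GC box as GGGCGG and the CCAAT box under its own letters, each on both strands, so that a reverse complement counts as a match. The matches do not overlap one another in these windows. The Col3a1 window holds the TATA box, beginning 117 bases before the start. The GC box begins 73 bases before the Col5a1 start and 85 before the Col27a1 start. In the Col5a3 window the CCAAT box begins 122 bases before the start, and the reverse complement of the GC box 63 and 41 bases before it. These are matches of letters, not shown sites.

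Only the 150 bases before the start were searched for the motifs, in the collagen genes and in all mouse promoters alike. RefSeq promoter entries, of 250 bases before to 50 after the start, were matched for 35 of the 44 genes. Of the 35, 8 held the CCAAT box, 4 the TATA box and 19 the GC box. Over all 32851 mouse promoters of that table the CCAAT box was in 24.5%, the TATA box in 7.57% and the GC box in 28.6%. Of the 11 genes that rose with CCl4, 8 had an entry, and the CCAAT box was in those of Col1a2, Col4a1 and Col4a2, the TATA box in 1 and the GC box in those of Col4a2, Col5a1 and Col6a2. Both genes that fell held the GC box and 1 of them the CCAAT box.

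Of the type IV genes, Col4a1 and Col4a2 rose in both challenges and Col4a5 rose at PH day 3. Col4a1 (chr8:11198423-11312826, minus strand) and Col4a2 (chr8:11312805-11449287, plus strand) encode the chains of the ordinary basement membrane network and lie head to head, with 22 bases in common at their starts. Col4a1 had 129, 115 and 68.6 CPM with CCl4, against 18.5, 24.8 and 16.2 CPM with olive oil. It had 139, 106, 106, 88.0 and 123 CPM in PH day 3 livers 12 to 16, against 46.1, 47.3, 38.3, 37.3 and 36.6 CPM in PH day 0 livers 12 to 16. Neither pair of groups overlapped, and the PH groups were tighter than for any of the type I and III genes. The log2 fold change of Col4a1 was 2.37 ± 0.26 (SE, adjusted p = 0.000422) with CCl4, or 5.18-fold, and 1.46 ± 0.12 (SE, adjusted p = 6.19e-09) at PH day 3, or 2.74-fold.

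Col4a2 had 70.0, 61.7 and 49.6 CPM with CCl4, against 15.5, 21.2 and 14.6 CPM with olive oil. It had 85.2, 69.5, 68.0, 59.3 and 82.9 CPM in PH day 3 livers 12 to 16, against 33.3, 40.1, 33.8, 23.7 and 25.7 CPM in PH day 0 livers 12 to 16. The groups were again apart in both comparisons. For Col4a2 the log2 fold change was 1.80 ± 0.20 (SE, adjusted p = 0.000271) with CCl4 and 1.22 ± 0.14 (SE, adjusted p = 1.02e-06) at PH day 3.

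Col4a5 (chrX:141475385-141689234, plus strand), a chain of the specialised network of kidney and other tissues, had 4.23, 9.34 and 3.75 CPM with CCl4, against 0, 2.41 and 0.706 CPM with olive oil. It had 7.06, 5.19, 8.77, 3.90 and 4.76 CPM in PH day 3 livers 12 to 16, against 1.70, 2.72, 1.60, 1.61 and 1.03 CPM in PH day 0 livers 12 to 16. All challenged livers were above their unchallenged counterparts at this low level. For Col4a5 the log2 fold change was 1.75 ± 0.37 (SE, adjusted p = 0.00141) at PH day 3, and 2.41 ± 0.78 (SE, adjusted p = 0.0531, not called by edgeR) with CCl4. With CCl4 it was called by DESeq2 (adjusted p = 0.00918), with no filter on low counts (adjusted p = 0.000401) and with library size scaling (adjusted p = 0.0189). It was also called without CCl4 liver 1, at 2.59 (adjusted p = 0.0253), and without olive oil liver 2, at 3.90 (adjusted p = 0.0257). The neighbour Col4a6, whose start faces that of Col4a5 across 1308 bases, had 38 counts over all 16 libraries and was not tested.

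Both multiplexins, which link basement membranes to the matrix around them, were called by edgeR in neither comparison. Col18a1 (chr10:77052178-77166548, minus strand) had 913, 656 and 637 CPM with CCl4, against 1056, 1064 and 1014 CPM with olive oil. It had 1177, 1130.0, 1118, 1038.5 and 1080.0 CPM in PH day 3 livers 12 to 16, against 1293, 1292, 1251, 1294 and 1137 CPM in PH day 0 livers 12 to 16. The CCl4 livers were all below the olive oil livers, while PH day 3 liver 12 was above PH day 0 liver 16. For Col18a1 the log2 fold change was -0.53 ± 0.21 (SE, adjusted p = 0.105) with CCl4 and -0.16 ± 0.09 (SE, adjusted p = 0.222) at PH day 3, and without CCl4 liver 1 that of CCl4 was called at -0.70 (adjusted p = 0.002). DESeq2 called Col18a1 lower with CCl4 (-0.51, adjusted p = 0.0409). Col15a1 had 10.1 to 20.7 CPM with CCl4 and 8.94 to 25.4 CPM with olive oil, and 19.7 to 37.9 CPM at PH day 3 and 10.1 to 28.7 CPM at PH day 0. Its log2 fold change at PH day 3 was 0.64 ± 0.27 (SE, adjusted p = 0.136), and it was called there with library size scaling (adjusted p = 0.04), with no filter on low counts (adjusted p = 0.00343) and without PH day 0 liver 12 (adjusted p = 0.00608).

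Type VI collagen forms beaded filaments around cells, and the genes of its 3 main chains rose with CCl4. Col6a1 (chr10:76708792-76726168, minus strand) had 22.6, 41.0 and 21.2 CPM with CCl4, against 8.00, 11.4 and 3.76 CPM with olive oil. It had 24.2, 8.82, 45.1, 17.0 and 12.6 CPM in PH day 3 livers 12 to 16, against 4.85, 9.66, 12.5, 11.0 and 4.45 CPM in PH day 0 livers 12 to 16. The CCl4 livers were all higher, and the PH groups overlapped through liver 13. For Col6a1 the log2 fold change was 1.86 ± 0.40 (SE, adjusted p = 0.0122) with CCl4, a call lost without olive oil liver 1 (adjusted p = 0.0588), and 1.36 ± 0.49 (SE, adjusted p = 0.0953) at PH day 3, where it was called by DESeq2 (adjusted p = 0.0373) and without PH day 3 liver 13 (adjusted p = 0.0403). Col6a1 was also called there by edgeR with the PH number as a block (adjusted p = 0.0157).

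Col6a2 (chr10:76595762-76623630, minus strand), which lies on the same strand as Col6a1, had 16.7, 25.6 and 14.3 CPM with CCl4, against 5.75, 4.82 and 2.12 CPM with olive oil. It had 23.0, 8.56, 28.8, 14.0 and 9.18 CPM in PH day 3 livers 12 to 16, against 2.62, 10.2, 9.58, 6.21 and 5.13 CPM in PH day 0 livers 12 to 16. Only the CCl4 and olive oil livers were fully apart. For Col6a2 the log2 fold change was 2.14 ± 0.37 (SE, adjusted p = 0.00258) with CCl4 and 1.36 ± 0.44 (SE, adjusted p = 0.0538, not called by edgeR) at PH day 3. There it was called by DESeq2 (adjusted p = 0.00365), with no filter on low counts (adjusted p = 4.42e-06), with library size scaling (adjusted p = 0.0416) and without PH day 0 liver 13, PH day 3 liver 13 or PH day 3 liver 16 (adjusted p between 0.0255 and 0.0441).

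Col6a3 (chr1:90765923-90843971, minus strand), the longest of these chains, had 30.5, 68.5 and 33.9 CPM with CCl4, against 10.5, 7.01 and 7.06 CPM with olive oil. It had 20.5, 16.3, 38.2, 7.58 and 8.84 CPM in PH day 3 livers 12 to 16, against 4.32, 14.9, 11.2, 4.60 and 6.16 CPM in PH day 0 livers 12 to 16. The PH groups overlapped, with PH day 3 livers 15 and 16 below the highest PH day 0 livers. For Col6a3 the log2 fold change was 2.43 ± 0.36 (SE, adjusted p = 0.00203) with CCl4 and 1.18 ± 0.54 (SE, adjusted p = 0.187) at PH day 3. It was called at PH day 3 by edgeR with the PH number as a block, at 1.15 (adjusted p = 0.011). A p above the threshold does not show that the type VI genes were the same at PH day 3 and PH day 0.

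Among the fibril-associated chains, Col12a1 (chr9:79598991-79718831, minus strand), which coats type I fibres, had 5.50, 6.88 and 8.31 CPM with CCl4, against 2.50, 1.31 and 1.18 CPM with olive oil. It had 3.19, 5.97, 8.77, 3.22 and 3.40 CPM in PH day 3 livers 12 to 16, against 1.97, 2.72, 1.06, 1.38 and 4.11 CPM in PH day 0 livers 12 to 16. The CCl4 livers were all higher, and PH day 0 liver 16 was above 3 of the PH day 3 livers. For Col12a1 the log2 fold change was 2.03 ± 0.43 (SE, adjusted p = 0.00775) with CCl4 and 1.16 ± 0.42 (SE, adjusted p = 0.0553) at PH day 3, where it was called by DESeq2 (adjusted p = 0.0383), with library size scaling (adjusted p = 0.0265) and without PH day 0 liver 16 or PH day 3 liver 12.

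Col14a1 (chr15:55307750-55520803, plus strand), another fibre-coating chain, had the highest mean level of its class among genes called in no comparison. It had 18.8, 67.3 and 51.4 CPM with CCl4, against 33.0, 28.5 and 21.2 CPM with olive oil. It had 45.8, 31.9, 53.0, 49.8 and 53.0 CPM in PH day 3 livers 12 to 16, against 19.8, 43.8, 50.6, 26.9 and 32.5 CPM in PH day 0 livers 12 to 16. CCl4 liver 1 was below all 3 olive oil livers while the other 2 were above them. For Col14a1 the log2 fold change was 0.73 ± 0.46 (SE, adjusted p = 0.315) with CCl4 and 0.45 ± 0.25 (SE, adjusted p = 0.256) at PH day 3, and without CCl4 liver 1 that of CCl4 was called at 1.10 (adjusted p = 0.00061).

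The other genes tested in these classes were near the filter. Col16a1, a fibril-associated chain, had 3.81 to 5.90 CPM with CCl4 and 0.941 to 2.50 CPM with olive oil, groups that did not overlap (log2 fold change 1.24 ± 0.48 SE, adjusted p = 0.0883). The transmembrane chain Col13a1 had 0.489 to 2.96 CPM with CCl4 and 2.50 to 4.16 CPM with olive oil, and 1.82 to 4.08 CPM at PH day 3 and 2.05 to 6.03 CPM at PH day 0. Col25a1, another transmembrane chain, and Col6a6 of type VI reached at most 7.19 CPM in any library. None of these 4 genes was called in either comparison by edgeR with all libraries and TMM factors. With CCl4, edgeR called Col16a1 higher with library size scaling (adjusted p = 0.0282). It called Col13a1 lower without CCl4 liver 1 (adjusted p = 0.0439) and Col25a1 lower without CCl4 liver 3 (adjusted p = 0.032).

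**Figure D2:**
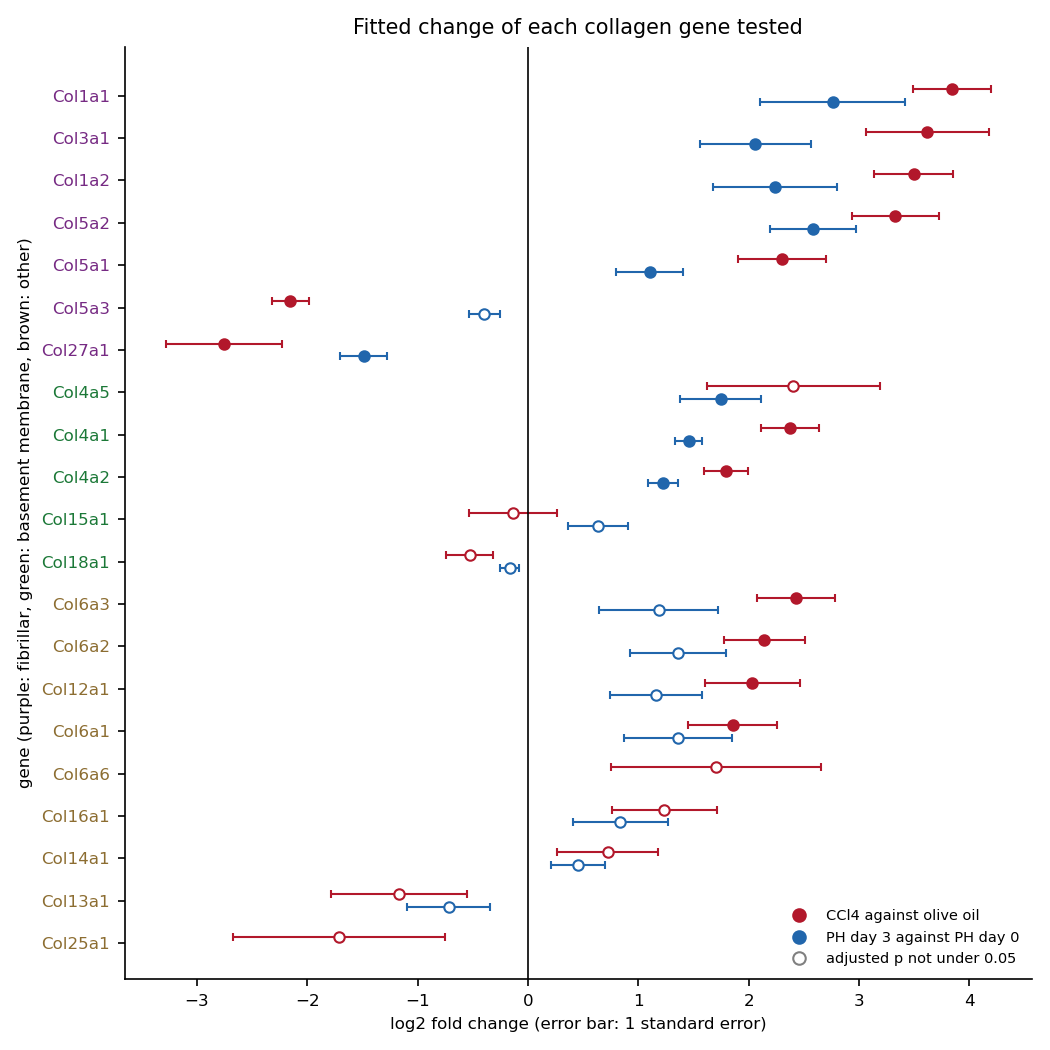
Fitted log2 fold changes of the tested collagen genes with their standard errors, for CCl4 against olive oil and PH day 3 against PH day 0, grouped by class, with calls at an adjusted p under 0.05 marked. Col1a1 reaches 3.84 with CCl4 and 2.76 at PH day 3, and Col5a3 and Col27a1 lie below 0 in both comparisons.

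Of the genes not tested, 23 with CCl4 and 25 after partial hepatectomy, 6 had no count in any of the 16 libraries. These were Col2a1, Col9a1 and Col10a1, which are known from cartilage, and Col6a4, Col19a1 and Col26a1. The other untested genes, 17 and 19 of them, reached at most 5.53 CPM in a CCl4 liver and 1.53 CPM in an olive oil liver, and at most 4.93 CPM in a PH day 3 liver and 2.74 CPM in a PH day 0 liver. The highest of those levels at PH day 3 was that of Col4a3, a chain of the kidney basement membrane network, which had 0.911, 4.93, 0, 0.459 and 2.04 CPM in PH day 3 livers 12 to 16, against 0.131 CPM in PH day 0 liver 12 and 0 in the other 4. With no filter on low counts, edgeR called Col4a3 higher at PH day 3 (adjusted p = 0.00113), with 31 counts over the PH day 3 livers, 19 of them in liver 13, and 1 over the PH day 0 livers, and called no other of these genes in either comparison.

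The genes called in both challenges numbered 8, namely Col1a1, Col1a2, Col3a1, Col5a1, Col5a2, Col4a1, Col4a2 and Col27a1. Each moved in the same direction in both, and the fitted change of each of the 8 was larger with CCl4. The PH day 3 calls of Col1a1, Col1a2 and Col3a1 were lost with the PH number as a block. In the edgeR fits without a block, Col5a3, Col6a1, Col6a2, Col6a3 and Col12a1 were called with CCl4 only and Col4a5 at PH day 3 only, which does not by itself show a difference. A direct test of the difference between the log2 fold changes, CCl4 minus PH, called Col5a3 at -1.73 ± 0.23 (SE, adjusted p = 0.00012) and Col4a1 at 0.94 ± 0.27 (SE, adjusted p = 0.0449), and no other of the 21 genes tested. Over 11868 genes, 5.33% were called in that test, 1.47% higher and 3.87% lower. At an unadjusted p under 0.05 there were 5 of the 21.

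The Col5a3 difference was called with each of the 16 libraries left out in turn, with adjusted p between 1.7e-05 and 0.00104. The Col4a1 difference was lost in 13 of those 16 omissions (adjusted p between 0.0523 and 0.137). The type I and III genes had differences larger than that of Col4a1, with larger errors, at 1.12 ± 0.93 for Col1a1 (SE, adjusted p = 0.576), 1.29 ± 0.81 for Col1a2 (SE, adjusted p = 0.425) and 1.60 ± 0.80 for Col3a1 (SE, adjusted p = 0.306). The challenge and the experiment it belongs to, with its own controls, cannot be told apart in this test.

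Within the challenged groups the classes ranked the livers differently. Each of the 5 risen fibrillar genes was highest in CCl4 liver 2 and lowest in CCl4 liver 1, with a ratio of highest to lowest of 2.23 to 3.92. Col4a1 and Col4a2 were instead highest in CCl4 liver 1 and lowest in CCl4 liver 3, with ratios of 1.41 to 1.88. At PH day 3, 4 of the 5 risen fibrillar genes were highest in liver 14 and 4 were lowest in liver 13, with ratios of 2.70 to 7.52. The 3 type IV genes were all lowest in PH day 3 liver 15, and 2 were highest in liver 12, with ratios of 1.44 to 2.25. CCl4 livers 1, 2 and 3 had TMM factors of 0.981, 1.31 and 1.29, so liver 1 was also the one scaled differently. CCl4 livers 1 and 2 had 610 and 939 counts of Col4a1 and 331 and 502 of Col4a2, in libraries of 4815180 and 6218526 counts. Scaled by library size alone, both genes were highest in CCl4 liver 2, as the risen fibrillar genes were, and still lowest in CCl4 liver 3.

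The class medians differed too. With CCl4 the median log2 fold change was 3.33 over the 7 fibrillar genes tested, 1.80 over the 5 basement membrane genes and 1.71 over the 9 others, beside 0.01 over all genes tested. The fibrillar genes ran from -2.76 to 3.84 there, and their median was 2.31 with no filter on low counts. Over the type IV genes tested alone the median was 2.37. At PH day 3 it was 2.06 over the 7 fibrillar genes, 1.22 over the 5 basement membrane genes and 1.16 over the 7 others, beside -0.01 over all genes tested. Groups did not overlap in 13 higher and 3 lower of the 21 genes tested with CCl4, where 21.5% and 20.1% of all genes tested did so. They did not overlap in 7 higher and 1 lower of the 19 tested at PH day 3, where the shares over all genes were 6.8% and 6.51%.

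The sum of all collagen levels averaged 1692 ± 272 CPM with CCl4 and 1354 ± 77.8 CPM with olive oil (SD, n = 3 each), and 1834 ± 291 CPM at PH day 3 and 1622 ± 114 CPM at PH day 0 (SD, n = 5 each). Col18a1 was the largest single part of the sum in every group. Without Col18a1 the sum was 653, 1348 and 871 CPM in the CCl4 livers, against 359, 318 and 252 CPM in the olive oil livers. In PH day 3 livers 12 to 16 it was 966, 492.7, 1039.9, 529 and 600.1 CPM, against 365, 423, 413, 356 and 286 CPM in PH day 0 livers 12 to 16. Neither pair of groups overlapped in that sum.

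As a share of collagen counts per kilobase, fibrillar genes took 16.8%, 39.4% and 33.3% in the CCl4 livers, against 14.0%, 10.7% and 11.7% in the olive oil livers. They took 22.1%, 10.6%, 24.7%, 13.8% and 12.5% in PH day 3 livers 12 to 16, against 11.1%, 10.7%, 11.3%, 11.3% and 8.76% in PH day 0 livers 12 to 16. All CCl4 livers were above all olive oil livers, and PH day 3 liver 13 lay within the PH day 0 range. Basement membrane genes took 60.4 ± 14.1% with CCl4 and 83.2 ± 1.99% with olive oil (SD, n = 3 each), and 76.3 ± 7.72% at PH day 3 and 84.7 ± 1.69% at PH day 0 (SD, n = 5 each). Col18a1 alone took 48.3 ± 12.3% with CCl4 and 79.0 ± 2.07% with olive oil, and 63.6 ± 7.03% at PH day 3 and 78.8 ± 1.77% at PH day 0 (SD).

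With Col18a1 left out, a choice made after the data were seen, the fibrillar share was 56.1 ± 10.9% with CCl4 and 58.1 ± 7.46% with olive oil (SD, n = 3 each). At PH day 3 it was 44.9 ± 8.38% and at PH day 0 50.2 ± 3.80% (SD, n = 5 each). The fibrillar share was thus higher with CCl4 only when Col18a1 was counted, and the differences without it were within the spread of the livers. The fibrillar genes that fell had been the 2 highest of their class per kilobase in the olive oil livers.

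**Figure D3:**
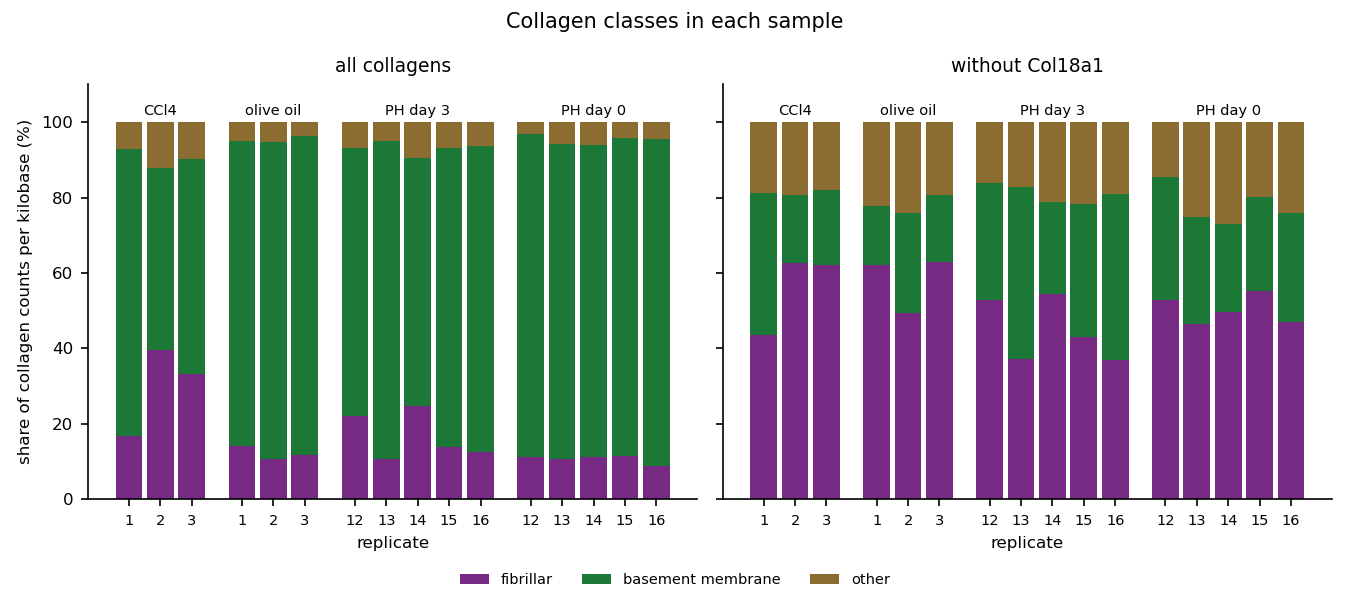
Share of collagen counts per kilobase taken by fibrillar, basement membrane and other genes in each library, in percent, with and without Col18a1 in the sum. With Col18a1 the fibrillar share averages 29.8% with CCl4 and 12.2% with olive oil, and without it 56.1% and 58.1%.

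Ratios of length-scaled counts were compared for 5 pairs of partner chains and for Col3a1 and Col4a1 each over Col1a1, which makes 7 pairs and, in both comparisons, 14 tests in all. Col5a1 over Col5a2 averaged 0.732 with CCl4 and 1.52 with olive oil, with ranges of 0.672 to 0.787 and 1.47 to 1.56 that did not overlap (exact permutation test, two-sided p = 0.1, the smallest that 3 against 3 can give, adjusted p = 0.311). It averaged 0.944 at PH day 3 and 2.42 at PH day 0, again without overlap (exact permutation test, two-sided p = 0.00794, the smallest that 5 against 5 can give, adjusted p = 0.111). The ratio of the common type V pair was thus lower in every challenged liver than in every unchallenged one of its own experiment, and it did not pass the adjustment over 14 tests.

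Col4a1 over Col4a2 averaged 1.49 with CCl4 and 1.03 with olive oil (exact permutation p = 0.1, adjusted p = 0.311), and 1.36 at PH day 3 and 1.18 at PH day 0 (exact permutation p = 0.0476, adjusted p = 0.311). Col1a1 over Col1a2, the pair of type I collagen, averaged 1.83 with CCl4 and 1.46 with olive oil (exact permutation p = 0.5), and 1.88 at PH day 3 and 1.43 at PH day 0 (exact permutation p = 0.246). In PH day 3 liver 16 that ratio was 0.902, the lowest of its group, and the other 4 lay between 1.99 and 2.53. Without that liver the log2 difference at PH day 3 was 0.66 for Col1a1 over Col1a2 (exact permutation p = 0.0238), -0.78 for Col3a1 over Col1a1 (exact permutation p = 0.00794) and -1.38 for Col4a1 over Col1a1 (exact permutation p = 0.0317), unadjusted. That liver was singled out by its low Col1a1 over Col1a2, so leaving it out had to enlarge this difference. Each of these ratios holds Col1a1, so they are not separate measures. None of the 14 ratios passed the adjustment.

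**Figure D4:**
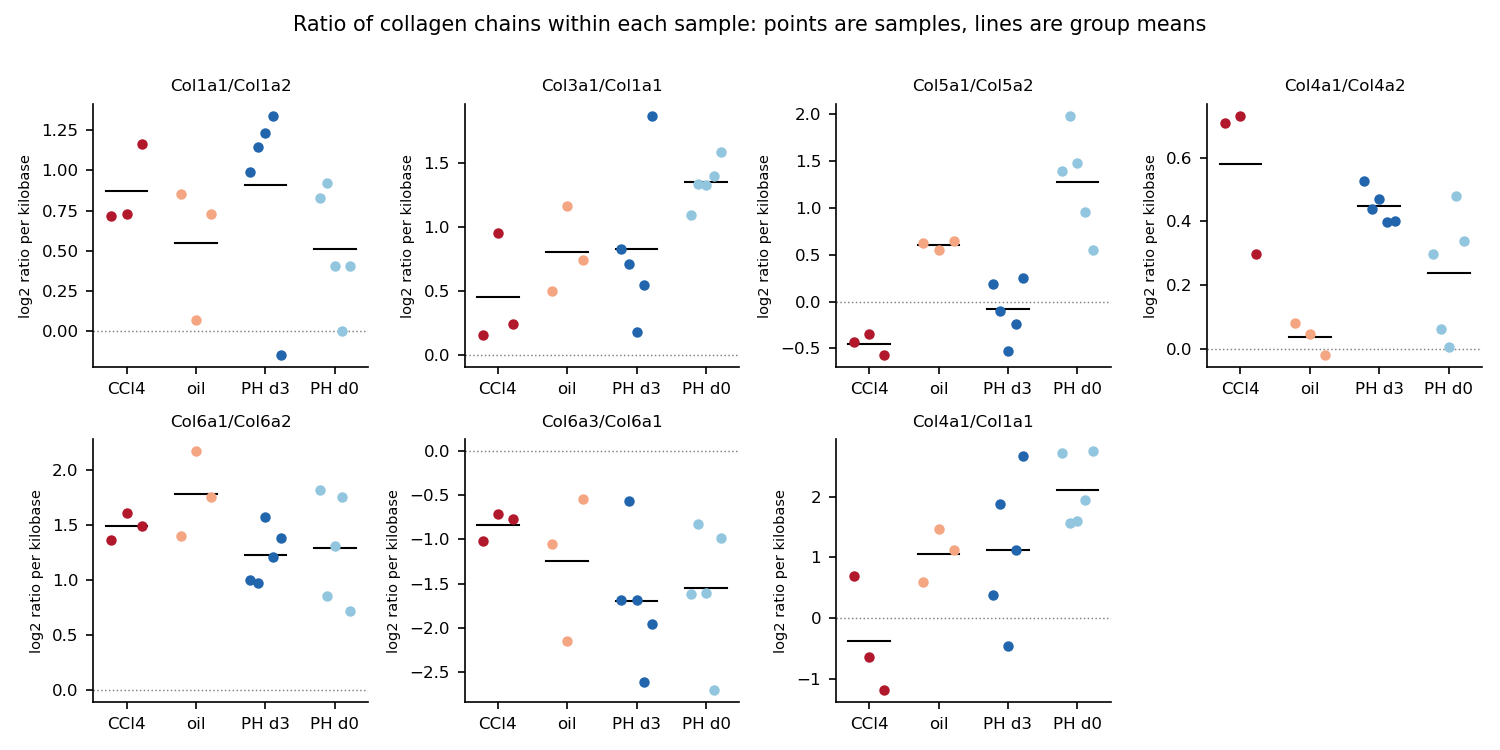
Log2 ratios of length-scaled counts between chains of the same collagen, and of Col3a1 and Col4a1 to Col1a1, with 1 point per library and the group mean, CCl4 left of olive oil and PH day 3 left of PH day 0. Col5a1 over Col5a2 averages -0.45 with CCl4 and 0.61 with olive oil, and -0.08 at PH day 3 and 1.27 at PH day 0.

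Genes that fold, export, crosslink, bind and break down collagen were described from lists of known members. Beside the counts of these lists, 11.3% of all genes tested were called higher and 11.6% lower with CCl4. At PH day 3 these shares were 9.73% and 8.01%. As for the collagens, a gene at a low level can pass the filter through the group in which it is high. The counts therefore do not describe all members of a list. Of the 14 tested that fold and hydroxylate chains, 4 rose with CCl4 and none fell, and of 11 tested at PH day 3, 4 rose and none fell. With library size scaling 11 of the 14 rose with CCl4, where 2973 of all 11337 genes tested were called higher. P3h1, a prolyl 3-hydroxylase, had 28.6 CPM with CCl4 and 12.5 CPM with olive oil (log2 fold change 1.17 ± 0.25 SE, adjusted p = 0.00844), and it rose at PH day 3 as well (0.89 ± 0.19 SE). Plod2, the lysyl hydroxylase of telopeptides, had 73 counts over the 3 CCl4 livers and 4 over the 3 olive oil livers. At PH day 3 Serpinh1, the collagen chaperone HSP47, had 31.4 CPM, against 8.81 CPM at PH day 0 (log2 fold change 1.86 ± 0.32 SE, adjusted p = 0.00174).

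Of 11 genes tested for procollagen export and trimming, 2 rose and 1 fell with CCl4, and 1 rose and 1 fell at PH day 3. With library size scaling 6 rose with CCl4 and 3 at PH day 3. Pcolce, an enhancer of the C-propeptide protease, had 23.4 CPM with CCl4 and 7.89 CPM with olive oil, and 44.9 CPM at PH day 3 and 10.1 CPM at PH day 0 (log2 fold changes 1.54 ± 0.36 and 2.21 ± 0.17 SE). Adamts2, which removes the N-propeptide, rose with CCl4 (1.58 ± 0.48 SE, adjusted p = 0.0431). Mia2, a cargo receptor family member of the endoplasmic reticulum, had 206 CPM with CCl4 and 315 CPM with olive oil, and 229 CPM at PH day 3 and 278 CPM at PH day 0, and its lower calls were lost when samples were scaled by library size.

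All 5 crosslinking genes tested rose with CCl4, and 2 of 3 rose at PH day 3. Lox, the lysyl oxidase, had 112 counts over the 3 CCl4 livers and 2 over the 3 olive oil livers. Loxl2 had 18.5 CPM with CCl4 and 2.15 CPM with olive oil, and 14.2 CPM at PH day 3 and 2.24 CPM at PH day 0 (log2 fold changes 3.10 ± 0.51 and 2.69 ± 0.31 SE). Tgm2, a transglutaminase, had 410.1 CPM at PH day 3 and 179 CPM at PH day 0 (1.20 ± 0.13 SE, adjusted p = 2.06e-06).

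Of 12 tested genes of fibril-binding proteins, 8 rose and 1 fell with CCl4, and of 10 at PH day 3, 4 rose. Lum, the proteoglycan lumican, had 33.3 CPM with CCl4 and 7.66 CPM with olive oil (2.10 ± 0.30 SE, adjusted p = 0.000991), and Tnc, the glycoprotein tenascin C, had 77 counts over the CCl4 livers and 3 over the olive oil livers. Podn, the proteoglycan podocan, had 4.16 CPM with CCl4 and 11.6 CPM with olive oil (-1.48 ± 0.34 SE), a call lost with library size scaling. Sparc, which binds collagen and is listed among basement membrane partners too, had 126 CPM at PH day 3 and 46.6 CPM at PH day 0 (1.46 ± 0.17 SE, adjusted p = 4.79e-05), and Fbln2 rose there by 2.06 ± 0.48 (SE).

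Of 14 basement membrane partners tested, 5 rose and 1 fell with CCl4, and of 13 at PH day 3, 7 rose and 2 fell. Nid1, the nidogen that joins type IV collagen to laminin, had 93.5 CPM with CCl4 and 10.04 CPM with olive oil (3.20 ± 0.21 SE, adjusted p = 2.34e-05). Lamc1, the common laminin gamma chain, rose in both (1.33 ± 0.21 with CCl4 and 1.17 ± 0.17 at PH day 3, SE). Lama3, a laminin chain of epithelia, fell in both (-1.02 ± 0.33 and -0.69 ± 0.24 SE) and Agrn, the proteoglycan agrin, at PH day 3 (-0.40 ± 0.12 SE), and these lower calls were lost with library size scaling.

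Of 9 collagen receptors tested, 2 rose with CCl4, and of 7 at PH day 3, 2 rose and 1 fell. With library size scaling 6 rose with CCl4. Ddr1, a receptor kinase activated by collagen, had 7.36 CPM with CCl4 and 0.851 CPM with olive oil, and 6.06 CPM at PH day 3 and 1.66 CPM at PH day 0 (log2 fold changes 3.05 ± 0.45 and 1.90 ± 0.40 SE). Mrc2, which takes up collagen for breakdown, rose with CCl4 (1.97 ± 0.53 SE), Itgb1, the beta chain of collagen-binding integrins, rose at PH day 3 (0.40 ± 0.09 SE), and Mrc1, the mannose receptor, fell there (-0.56 ± 0.16 SE), a call lost with library size scaling.

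Of 8 breakdown genes tested, 5 rose with CCl4, and of 6 at PH day 3, 2 rose. Mmp14, a membrane-bound collagenase, had 74.9 CPM with CCl4 and 20.4 CPM with olive oil (1.85 ± 0.24 SE), and it rose at PH day 3 too (0.84 ± 0.16 SE). The edgeR test of the difference between the challenges called Mmp14 higher (1.05 ± 0.30 SE, adjusted p = 0.0449) and Podn lower (-1.74 ± 0.46 SE, adjusted p = 0.025), and no other listed pathway gene. DESeq2 called 1 crosslinking gene higher and 1 breakdown gene lower as well. With library size scaling, edgeR called 1 gene higher in each of the folding, receptor and profibrotic lists. The Podn call was lost with library size scaling, and the Mmp14 call by limma-voom and with the PH number as a block. Mmp12, the elastase of macrophages, had 186 counts over the CCl4 livers and 3 over the olive oil livers, and Ctsb, a lysosomal protease, had 780.1 CPM at PH day 3 and 547 CPM at PH day 0. Of 14 genes of profibrotic signals tested, Lox again among them, 7 rose with CCl4, including the growth factor receptor Pdgfrb (1.68 ± 0.32 SE). Of 12 tested at PH day 3, 4 rose, including the growth factor Pdgfa (1.34 ± 0.28 SE) and the receptor Pdgfra (1.48 ± 0.35 SE).

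Markers of cell types known to make collagen were summed in each library. For the counts of called markers of all cell types, the shares over all genes tested were again 11.3% higher and 11.6% lower with CCl4. They were 9.73% and 8.01% at PH day 3, and the limit of the filter holds here too. The 9 myofibroblast markers summed to 246, 417 and 320 CPM in the CCl4 livers, against 63.0, 128 and 71.7 CPM in the olive oil livers, where Cnn1 was at 0. They summed to 185 to 467 CPM at PH day 3 and 99.7 to 195 CPM at PH day 0, and Cnn1 was again at 0 at PH day 0. With CCl4, 6 of 7 tested rose, and at PH day 3, 2 of 6. Acta2, 1 of the 9, was a small part of the sums, at 5.71, 20.4 and 19.9 CPM in the CCl4 livers. It had 1.84 to 23.2 CPM at PH day 3 and 0.69 to 4.71 CPM at PH day 0, groups that overlapped. The 9 portal fibroblast markers summed to 20.7 to 47.5 CPM with CCl4 and 8.94 to 12.8 CPM with olive oil, and to 22.6 to 69.7 CPM at PH day 3 and 9.93 to 17.0 CPM at PH day 0, with 3 of 5 and 2 of 3 tested higher. Fbln2 is in that list and in the fibril-binding list, and Timp1 is in the myofibroblast list and the breakdown list.

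The 11 markers of quiescent stellate cells summed to 145, 280 and 212 CPM with CCl4, against 174, 189 and 162 CPM with olive oil, and to 140 to 357 CPM at PH day 3 and 140 to 252 CPM at PH day 0. With CCl4, 2 of 11 rose and 1 fell, and at PH day 3, 3 rose and 1 fell. CCl4 liver 2, the highest for each risen fibrillar gene, was highest in the stellate, myofibroblast and portal fibroblast sums as well. It was also highest in the mesothelial sum, at 28.4 CPM. At PH day 3 the highest liver was not the same for the fibrillar genes and these sums. Liver 14 was highest for 4 of the 5 risen fibrillar genes, and its stellate, myofibroblast and portal fibroblast sums were 225, 246 and 37.0 CPM. Liver 12 was highest in these sums, at 357, 467 and 69.7 CPM. Yet PH day 3 livers 12 and 14 were above the others in summed fibrillar genes, at 564 and 626 CPM against at most 254 CPM. They were above the others in the stellate, portal fibroblast and mesothelial sums too. In the myofibroblast sum, liver 14 was below livers 13 and 16, which had 272 and 301 CPM. The 6 mesothelial markers, from the capsule of the organ, summed to 4.08 to 28.4 CPM with CCl4 and 0.235 to 4.75 CPM with olive oil, where Upk1b was at 0. They summed to 5.78 to 30.1 CPM at PH day 3 and 1.03 to 1.73 CPM at PH day 0, where Upk3b and Upk1b were at 0. None of the 6 passed the filter with CCl4, and Msln alone passed it for PH day 3 and rose, with 131 counts over the PH day 3 livers and 2 over the PH day 0 livers. Their part in the collagen results was not tested.

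Endothelial cells are known makers of type IV collagen. The 8 sinusoidal endothelial markers summed to 140 to 157 CPM with CCl4 and 137 to 160.0 CPM with olive oil, and to 135 to 211 CPM at PH day 3 and 207 to 278 CPM at PH day 0. Of these 8 markers, 1 rose with CCl4 and 4 fell at PH day 3, where the type IV genes rose. The 6 vascular endothelial markers summed to 32.8 to 41.7 CPM with CCl4 and 24.3 to 29.9 CPM with olive oil, and to 37.4 to 67.3 CPM at PH day 3 and 40.0 to 61.6 CPM at PH day 0, with none of 4 tested called by edgeR in either comparison (1 with CCl4 and 0 at PH day 3 at an unadjusted p under 0.05). Of 2 cholangiocyte markers tested none was called by edgeR (1 and 0 at an unadjusted p under 0.05). Of the macrophage markers 4 of 8 rose with CCl4, and none of 4 was called by edgeR at PH day 3 (0 at an unadjusted p under 0.05). Of the 7 hepatocyte markers none was called by edgeR with CCl4 (1 at an unadjusted p under 0.05), and 1 rose and 2 fell at PH day 3. Their part in the collagen results was not tested.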

How the data were processed

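RNA of 16 whole-liver samples was sequenced, and the authors deposited 1 table of raw counts per gene for each. Per the file headers, reads overlapping exons of Ensembl release 95 (GRCm38) were counted per gene with featureCounts 1.6.2 in its reverse-stranded setting, and the headers show no option to count reads that align to several places or overlap several genes. Alignment with STAR 2.5.1 is named in the submitters' processing notes. Counting by strand separates overlapping genes on opposite strands, and reads shared by near-identical copies are lost.

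Gene symbols, biotypes and coordinates were taken from GENCODE M21 (GRCm38), which named 54809 of the 54838 identifiers, and promoter sequences from RefSeq (GRCm38.p6). Low counts were removed with filterByExpr (minimum count 10, minimum total 15). The 2 comparisons and the difference of their log2 fold changes were fitted on all genes with the quasi-likelihood test of edgeR 4.0.16 in R 4.3.3, with TMM factors and Benjamini-Hochberg adjustment, and a gene was called at an adjusted p under 0.05. Each comparison used its own 2 groups, and the difference used all 16 samples. The fitting was tested on simulated data. Levels per library are CPM with TMM factors over the 16 samples, and levels between genes were compared only per kilobase of exon. Chain ratios were tested with exact two-sided permutations over samples (scipy 1.17.1). Replicates differed by more than counting noise (chi-square per degree of freedom 5.51 to 72.3), so all were kept as separate samples. The highest values were those of CCl4 liver 1, at 71.7 against liver 2 and 72.3 against liver 3. Livers 2 and 3 of that group differed by 8.97, and no other pair of replicates was above 23.8.

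Alternatives were DESeq2 1.42.0, limma-voom (limma 3.58.1), other size factors and filters, stricter thresholds, the PH number as a block, and leaving out each library. Genes with values in every sample were those called in at least 1 fit with a mean of at least 1 CPM, up to 8 per class, and the highest uncalled gene of each class. Pathway genes were named as the 2 of smallest adjusted p in each direction per list and comparison. The collagen genes and all lists were chosen with earlier results of these data known. Comparisons of the proteins were not analysed here.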

Additional observations from a re-analysis of the deposited data

Results flagged for a closer look

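The search for a library far from the others took groups of 4 to 10 samples, which left out the CCl4 and olive oil groups of 3. Of the 54 groups searched, 4 held such a library, where chance gives about 1 in 20. PH day 0 liver 16 was the low library in 3 of them, which are not independent measures. Its Col18a1 level was 1137 CPM and the other 4 lay between 1251 and 1294 CPM. Its collagen sum was 1423 CPM, against 1650.4 to 1714 CPM in the other 4, and its fibrillar share was 8.76%, against 10.7% to 11.3%. In PH day 3 liver 16 the log2 ratio of Col1a1 to Col1a2 was -0.15, and the other 4 lay between 0.99 and 1.34.

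The log2 fold change with CCl4 differed from that at PH day 3 for 2 collagen genes by a test of the difference itself (edgeR, all 16 samples). The difference, CCl4 minus PH, was -1.73 for Col5a3 (adjusted p = 0.00012) and 0.94 for Col4a1 (adjusted p = 0.0449).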

How the results depend on the processing

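With CCl4, all 5 risen fibrillar genes were counted with every library left out and under every other setting. The counts that moved were mostly lower calls and small classes. At an adjusted p under 0.01 the lower calls with CCl4 were 1 over all collagens and 1 among fibrillar genes, and at PH day 3 the higher calls were 4 and 1. With no filter the fibrillar median with CCl4 was 2.31, and at PH day 3 the lower calls were 2 over all collagens and 2 among fibrillar genes, with 5 basement membrane and 2 other genes higher. With library size scaling the basement membrane median with CCl4 was 2.23, 2 other genes were higher at PH day 3, and the collagen sum was 2037 CPM with CCl4 and 1205 CPM with olive oil. That scaling moved the median of all genes by 0.46 with CCl4, 0.13 at PH day 3 and 0.30 in the difference, and the calls were 2973 higher and 423 lower with CCl4 (1279 and 1320 with TMM), 1617 and 432 at PH day 3 (1026 and 845), and 481 and 153 in the difference (174 and 459). DESeq2 called 1 basement membrane gene lower with CCl4 and 3 other genes higher at PH day 3, and limma-voom 3 fibrillar genes higher there. Over type IV genes alone the basement membrane median was 2.37 with CCl4 and 0.64 in the difference. The higher count in the difference, over all collagens and over basement membrane genes, was 0 at an adjusted p under 0.01, with a log2 fold change of at least 1, with limma-voom and with the block.

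The numbers of the PH livers were not treated as pairs because the labels do not say whether they mark the same animal. The deviations of same-numbered PH livers correlated at -0.048 to 0.112, and those of differently numbered livers at -0.102 to 0.068. These ranges overlap, so they do not decide whether the numbers mark pairs. With the replicate block, 2 fibrillar genes were higher and 2 lower at PH day 3, 2 collagens in all were lower and 2 other genes higher. Col1a1 (adjusted p = 0.0523), Col1a2 (0.103) and Col3a1 (0.118) were then not called, and no breakdown gene was called higher in the difference. The paired p, from sign flips within PH numbers, was 0.0625 for Col5a1 over Col5a2 (-1.36), the smallest that 5 pairs can give. It was 0.1875 for Col4a1 over Col4a2 (0.21).

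Counts without length gave a fibrillar share of 14.3% with olive oil and 12.4% at PH day 0. Without Col18a1, chosen after seeing the data, the fibrillar, basement membrane and other shares were 56.1%, 25.2% and 18.7% with CCl4, 58.1%, 20.1% and 21.8% with olive oil, 44.9%, 36.1% and 19.0% at PH day 3, and 50.2%, 27.7% and 22.1% at PH day 0.

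With single libraries left out, the Col15a1 change with CCl4 ranged from -0.46 to 0.37, and it was 0.33 with library size scaling. The difference of the responses ranged from -1.17 to 0.000816 for Col13a1 and from -0.072 to 0.668 for Col14a1. Log2 ratios at PH day 3 ranged from 0.27 to 0.66 for Col1a1 over Col1a2, from -0.78 to -0.36 for Col3a1 over Col1a1, from 0.15 to 0.27 for Col4a1 over Col4a2, from -0.21 to 0.064 for Col6a1 over Col6a2, from -0.44 to 0.076 for Col6a3 over Col6a1 and from -1.38 to -0.60 for Col4a1 over Col1a1, and that of Col6a3 over Col6a1 with CCl4 from -0.034 to 0.77. The cause of the reversals was not tested.

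Leaving out 1 library at a time gave 10 to 14 collagens higher and 1 to 3 lower with CCl4, 6 to 10 higher and 1 to 2 lower at PH day 3, and 0 to 1 higher and 1 to 2 lower in the difference. By class it gave, with CCl4, 5 fibrillar genes higher in every omission and 1 to 2 lower, 2 to 4 basement membrane genes higher and 0 to 1 lower, and 3 to 5 others higher and 0 to 1 lower. At PH day 3 it gave 2 to 5 fibrillar genes higher and 1 to 2 lower, 3 to 4 basement membrane genes higher, and 0 to 2 others higher. The basement membrane median in the difference ranged from -0.094 to 0.58.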
